A study of Mus musculus with 36 samples.

Results

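The 7 clock output genes Dbp, Tef, Hlf, Nfil3, Bhlhe40, Bhlhe41 and Ciart were followed over the day in livers of mice under chronic intermittent hypoxia (IH) or normoxia (control). They were taken by symbol from the 24346 gene symbols of the liver expression tables. Each of the 7 stood on 1 row, and all 7 passed the filter on low values (0.1 FPKM or more on average over all libraries), as did 13215 genes in all. FPKM counts fragments relative to the length of the transcript and to the number mapped in the library, which puts genes of different length on one scale. How far it also puts the libraries on one scale was tried with other scalings.

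Male C57BL/6JRj mice aged 16 weeks, housed 5 per cage under 12 h light and 12 h dark with free access to chow and water, were exposed for 4 weeks. IH mice went through 60 cycles of hypoxia and reoxygenation per hour, with a nadir of 5% FiO2, from ZT0 (lights on) to ZT8 each day, and control mice received matched cycles of air. Livers were collected at ZT0, ZT4, ZT8, ZT12, ZT16 and ZT20 from 3 mice per condition, which gave 36 libraries of polyadenylated RNA and 12 groups of 3. In both conditions ZT4 therefore fell within the daily exposure hours and ZT8 at their end. Each liver is whole tissue from 1 mouse, so a change in the share of a cell type and a change in RNA per cell cannot be told apart.

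The circadian clock of the liver reaches metabolism partly through transcription factors that the clock itself switches on and off. CLOCK and BMAL1 bind E-boxes and drive Dbp, Tef and Hlf, which encode the PAR bZIP activators, while the repressor NFIL3 (E4BP4) competes with these activators for the same D-box elements and is itself held down by REV-ERB proteins. BHLHE40 (DEC1) and BHLHE41 (DEC2) are repressors that bind E-boxes, and CIART (CHRONO) is a repressor of CLOCK and BMAL1. Bhlhe40 is also known as a gene that hypoxia can induce through HIF-1.

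In mouse genome build GRCm38 (GENCODE M21), Dbp lies on chromosome 7 from 45705088 to 45710203, Tef on chromosome 15 from 81802421 to 81826863, Hlf on chromosome 11 from 90336536 to 90390895 and Nfil3 on chromosome 13 from 52967209 to 52981073. Bhlhe40 and Bhlhe41 are both on chromosome 6, from 108660629 to 108666925 and from 145858243 to 145865558, and Ciart is on chromosome 3 from 95878503 to 95882251. Exons of Sphk2 on the other strand cover 18.0% of the exonic bases of Dbp, and exons of the predicted gene Gm43909 cover 19.0% of those of Bhlhe41. The library kit kept strand, but whether the FPKM estimation used it is not given in the sources used here, so reads of these overlapping genes may not be separated.

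The 250 bases before the start site were searched in RefSeq promoters (build GRCm38.p6) for the E-box CACGTG, for the D-boxes TTATGTAA, TTACATAA, TTACGTAA and TTATATAA, and for the cyclic AMP response element TGACGTCA, on both strands. No promoter of Bhlhe40 was matched. The E-box was present in 6.02% of 32851 promoter windows of this length. Ciart held 3 E-boxes in 1 window, Bhlhe41 held 1, and each of the RefSeq start sites of Tef held 1. The stretches around those E-boxes that lie outside annotated exons are shown because they hold the clock element that these members share, 5′ to 3′, with E-boxes in capitals: Ciart at chr3:95882252-95882369 (minus strand), Bhlhe41 at chr6:145865559-145865598 (minus strand) and the downstream start site of Tef, within the annotated gene, at chr15:81811251-81811306 (plus strand).
Ciart: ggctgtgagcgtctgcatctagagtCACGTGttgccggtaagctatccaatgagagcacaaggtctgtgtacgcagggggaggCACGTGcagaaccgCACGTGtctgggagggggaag
Bhlhe41: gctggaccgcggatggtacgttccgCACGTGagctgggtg
Tef: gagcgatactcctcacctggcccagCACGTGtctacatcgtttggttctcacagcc
The Hlf window held 1 cyclic AMP response element, found in 1.55% of windows, and none of these letters stood in the windows of Dbp and Nfil3. No member held a D-box, which was found in 1.43% of windows. A match is a description of the letters and not a measured binding site.

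Before the comparisons, the libraries themselves were examined. Low FPKM values fell on steps worth whole fragments, from which a depth of about 53700000 to 93300000 fragments per library was estimated (median 70800000, for an effective transcript length 200 bases under the annotated one). Replicates of a group correlated with r from 0.949 to 0.995 across genes. Control ZT12 replicate 2 stood apart, with an FPKM sum of 758113 against 540095 to 579428 in the other 35 libraries. This library and 2 others (control ZT16 replicate 3 and IH ZT0 replicate 2) held more than 10000 FPKM of the acute phase gene Saa1. Hepatocyte markers were high in every library: the 6 genes together summed to between 38830 and 64510 FPKM in control and between 39630 and 56880 FPKM in IH. Kupffer cell and leukocyte markers (8 genes) summed to between 15.8 and 148 FPKM in control and between 14.6 and 38.7 FPKM in IH.

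The first question was how the members cycle over the day. Dbp, Tef, Bhlhe41 and Ciart rose during the light phase and were highest at ZT8 or ZT12, whereas Nfil3 ran opposite, with its trough at ZT8 in both conditions. A 24-h cosine was fitted within each condition with limma on log2(FPKM + 1). At a nominal P of 0.01 or less, 5 of 7 members were rhythmic in control, against 20.0% of all genes tested, and 7 of 7 in IH, against 39.9%. Adjusted over all genes, the moderated limma F test gave Dbp an adjusted p of 8.7e-06 in control and 3.28e-06 in IH, Ciart 6.81e-06 and 2.11e-05, Tef 1.09e-05 and 4.23e-05, Nfil3 4.7e-05 and 4.7e-05, and Bhlhe41 0.00704 and 0.000389, so these 5 cycled in both conditions. Hlf (limma, adjusted p = 0.164 in control and 0.000211 in IH) and Bhlhe40 (0.197 and 0.00773) passed in IH alone, but whether their rhythms differ is answered by the test of the difference given further on, which neither passed. Without control ZT12 replicate 2, Hlf passed in control as well (limma, adjusted p = 0.020). It also passed there with scaling by the median ratio, with quantile normalization and without the 3 libraries high in Saa1 (limma, adjusted p 0.0056 to 0.040). Each gave 6 of 7, and the share of all genes rhythmic in those fits was not counted. With a spread shared by both conditions, Bhlhe40 missed the threshold in IH (limma, adjusted p = 0.068).

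**Figure D1:**
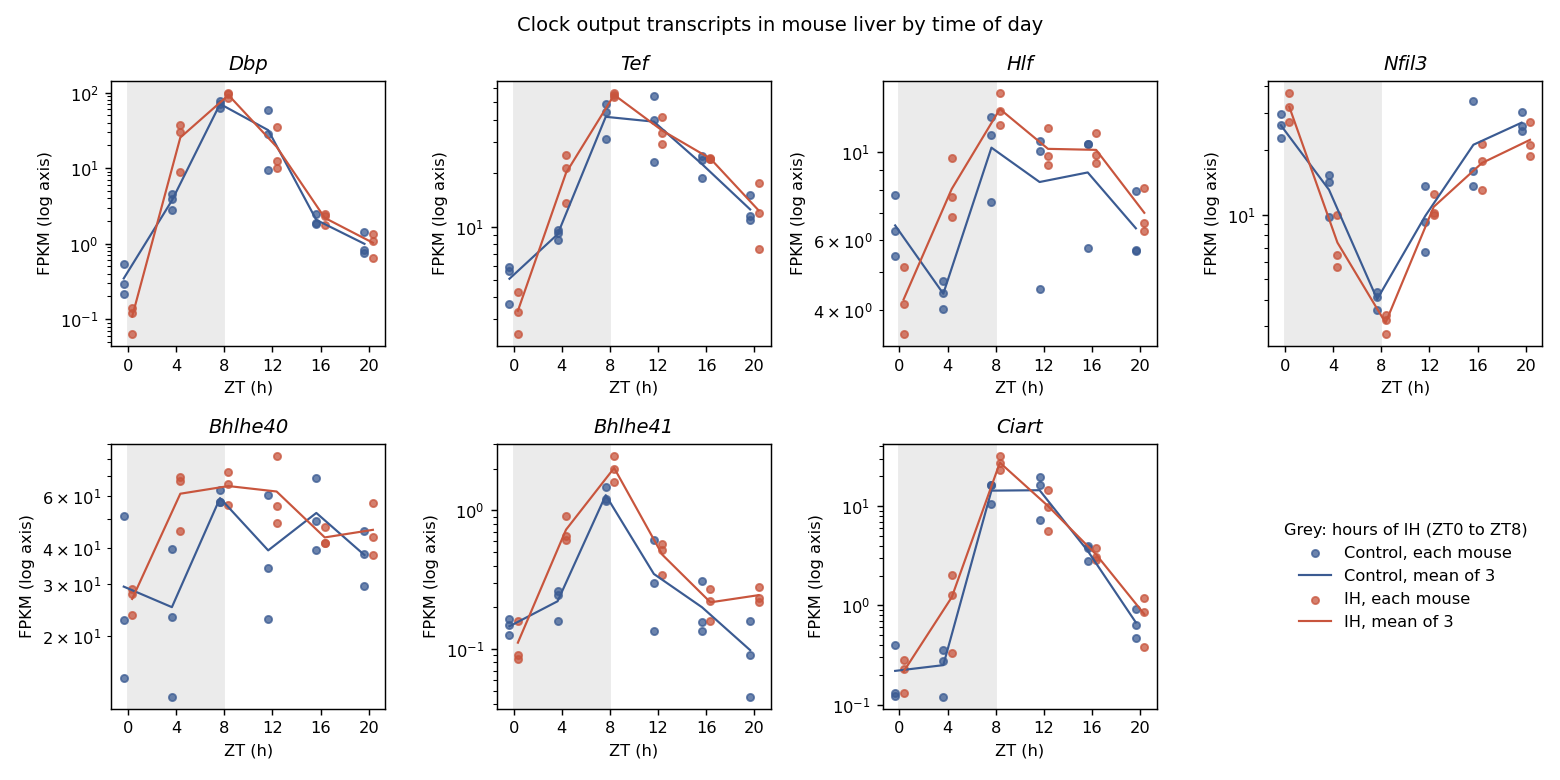
FPKM of the 7 clock output genes (log axis) against Zeitgeber time in h, 1 point per mouse in control (blue) and IH (red), with lines through the means of 3 and the daily hours of IH in grey. Dbp climbs from under 1 FPKM at ZT0 to between 62.9 and 98.7 FPKM at ZT8, Nfil3 mirrors it, and at ZT4 the IH points of Dbp, Tef, Hlf, Bhlhe40 and Bhlhe41 lie above all control points.

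Among the PAR bZIP activators, Dbp had the widest swing. At ZT0 it measured 0.537, 0.289 and 0.215 FPKM in the control livers and 0.122, 0.0637 and 0.140 FPKM in the IH livers, so the groups did not overlap although both were near the bottom of the measured range. By ZT8 it had reached 62.9, 78.4 and 71.2 FPKM in control and 98.7, 95.4 and 84.4 FPKM in IH. The mean at the peak was 204 times that at the trough in control and 855 times in IH, and the second ratio rests on a trough mean of only 0.109 FPKM. Fitted amplitudes on the log2 scale, where the low trough counts less, were 2.76 ± 0.30 (SE, n = 18) in control and 3.00 ± 0.31 (SE, n = 18) in IH.

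Tef, which encodes the thyrotroph embryonic factor, never fell as low as Dbp. At its ZT0 trough the control livers averaged 5.08 ± 1.22 FPKM (SD, n = 3) and the IH livers 3.35 ± 0.90 FPKM. At ZT8 the averages were 41.5 ± 9.33 FPKM for control and 55.1 ± 1.32 FPKM for IH. In control the ZT8 and ZT12 values (31.1, 44.2 and 49.1 against 54.1, 23.1 and 39.6 FPKM) overlapped, so the sampled peak time was not resolved there. In IH the ZT8 livers (53.8, 55.1 and 56.4 FPKM) all stood above the ZT12 livers (41.4, 29.3 and 33.4 FPKM).

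Hlf, the hepatic leukemia factor gene, cycled least of these activators, with a peak mean 2.33 times the trough in control and 3.01 times in IH. In control it measured 10.6, 4.51 and 10.0 FPKM at ZT12, the low value being that of replicate 2, the library that stood apart. At ZT16 in control it measured 10.4, 10.4 and 5.73 FPKM, the low value again in a library high in Saa1 (replicate 3). In IH the corresponding livers measured 9.27, 9.75 and 11.5 FPKM at ZT12 and 11.1, 9.38 and 9.81 FPKM at ZT16.

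Nfil3, the repressor of D-box transcription, was lowest at ZT8, with 3.57, 4.35 and 4.14 FPKM in control and 3.38, 3.22 and 2.76 FPKM in IH. Every IH liver at ZT8 was thus below every control liver, by a log2 difference of -0.29 that did not pass (limma, adjusted p = 1 after rounding). It was highest around the end of the dark phase: the control means at ZT20 and ZT0 were 26.9 ± 2.96 and 26.2 ± 3.33 FPKM (SD, n = 3), which overlapped, and the IH mean at ZT0 was 31.9 ± 4.99 FPKM. Over the 36 libraries Nfil3 and Dbp ran opposite with a Pearson correlation of -0.95, and Nfil3 and Bhlhe41 with one of -0.91, as a description over libraries that share time points.

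Bhlhe40 was the most abundant member averaged over the day (40.5 FPKM in control and 50.7 FPKM in IH), followed by Tef, Dbp and Nfil3 with day means between 15.5 and 24.9 FPKM, Hlf (7.47 and 8.73 FPKM), Ciart (5.59 and 7.17 FPKM) and Bhlhe41 (0.384 and 0.634 FPKM). Control livers of one time point could differ widely in Bhlhe40, for example 22.6, 51.4 and 14.4 FPKM at ZT0. At ZT8 the 3 control livers lay close together, at 62.6, 57.0 and 57.3 FPKM.

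Bhlhe41 was measured at a low level, above 1 FPKM only at ZT8, with 1.16, 1.49 and 1.21 FPKM in control and 2.48, 1.98 and 1.61 FPKM in IH. Every IH liver was above every control liver at that time, and the difference on the log2(FPKM + 1) scale, which understates changes of genes this low, was 0.40 ± 0.10 (SE; limma, adjusted p = 0.43). Ciart went from 0.219 ± 0.159 FPKM (SD, n = 3) at ZT0 to 14.4 ± 3.41 FPKM at ZT8 in control. In IH it went from 0.215 ± 0.078 to 27.5 ± 4.65 FPKM.

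ZT4, halfway through the exposure hours, was the time point at which members passed the threshold between IH and control. The p-values were adjusted within each time point, so the cutoff differed between time points. In a limma fit of the 12 groups, 3 of 7 members passed an adjusted p of 0.05 at ZT4, all 3 higher in IH, where 1.16% of all genes tested passed in either direction and 0.885% were higher in IH. Dbp, Tef and Bhlhe41 rose. In 5 of 7 members every IH liver was above every control liver, against 26.7% of all genes at that time. All 7 had an unadjusted p under 0.05, against 16.4% of all genes. The log2 difference was above 0 in 6 of 7 members, against 68.0% of all genes, with a median of 0.75 over the members and 0.067 over all genes tested.

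Dbp measured 3.90, 2.77 and 4.52 FPKM in the control livers and 8.78, 30.5 and 37.1 FPKM in the IH livers at ZT4. The groups did not overlap, although IH replicate 1 lay well below the other two IH livers. The log2 difference was 2.28 ± 0.44 (SE; 95% interval 1.39 to 3.18; limma, adjusted p = 0.0099), a 4.86-fold higher level on the log2(FPKM + 1) scale. Leaving out IH ZT4 replicate 2 or replicate 3 ended this call (limma, adjusted p = 0.070 and 0.090), with differences of 2.05 and 1.91.

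Tef measured 9.56, 8.38 and 9.20 FPKM in control and 13.5, 21.4 and 25.2 FPKM in IH at ZT4, again with the lowest IH value in replicate 1. Its log2 difference was 1.03 ± 0.26 (SE; 95% interval 0.49 to 1.56; limma, adjusted p = 0.045). This call was close to the threshold: it was lost in 19 of the 36 fits that left out 1 library (differences 0.85 to 1.06; limma, adjusted p 0.050 to 0.21), among them each of the 3 control ZT4 livers and IH ZT4 replicates 2 and 3. It was also lost after rescaling all libraries to a common FPKM sum (limma, adjusted p = 0.11) and without a filter on low values (0.062).

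Bhlhe41 measured 0.159, 0.261 and 0.243 FPKM in control and 0.607, 0.916 and 0.656 FPKM in IH at ZT4. The lowest IH liver had more than the highest control liver by a wide margin on this low scale. Its log2 difference was 0.50 ± 0.10 (SE; 95% interval 0.29 to 0.70; limma, adjusted p = 0.011), and 1.36 with a pseudocount of 0.1 FPKM in place of 1 (limma, adjusted p = 0.018), with the call lost without control ZT4 replicate 1 (0.062) or IH ZT4 replicate 2 (0.097).

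The other 4 members did not pass at ZT4. Bhlhe40 measured 12.4, 23.2 and 39.6 FPKM in control and 69.8, 67.6 and 45.7 FPKM in IH, without overlap, a log2 difference of 1.37 ± 0.36 (SE; limma, adjusted p = 0.053). It passed in 8 of the 36 fits that left out 1 library. Hlf measured 4.74, 4.03 and 4.42 FPKM in control and 6.84, 7.71 and 9.62 FPKM in IH, also without overlap (log2 difference 0.74 ± 0.22; limma, adjusted p = 0.085). Without control ZT12 replicate 2, whose spread enters the shared error of the fit, Hlf passed (limma, adjusted p = 0.019), and the number of members called at ZT4 was 5, with 6.05% of all genes called in that fit.

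Nfil3, the only member lower in IH at ZT4, measured 14.2, 15.3 and 9.75 FPKM in control and 9.97, 5.72 and 6.51 FPKM in IH, so that IH replicate 1 overlapped the lowest control liver (log2 difference -0.75 ± 0.25; limma, adjusted p = 0.12). Ciart measured 0.355, 0.120 and 0.276 FPKM in control and 0.331, 1.26 and 2.03 FPKM in IH, with IH replicate 1 inside the control range (log2 difference 0.75 ± 0.29; limma, adjusted p = 0.19). With a pseudocount of 0.1 FPKM its difference was 1.68 (limma, adjusted p = 0.066). The number of members called at ZT4 fell to 0 without IH ZT4 replicate 2, and to 1 without IH ZT4 replicate 3 or without control ZT4 replicate 1. The share of all genes called in those fits was not counted.

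**Figure D2:**
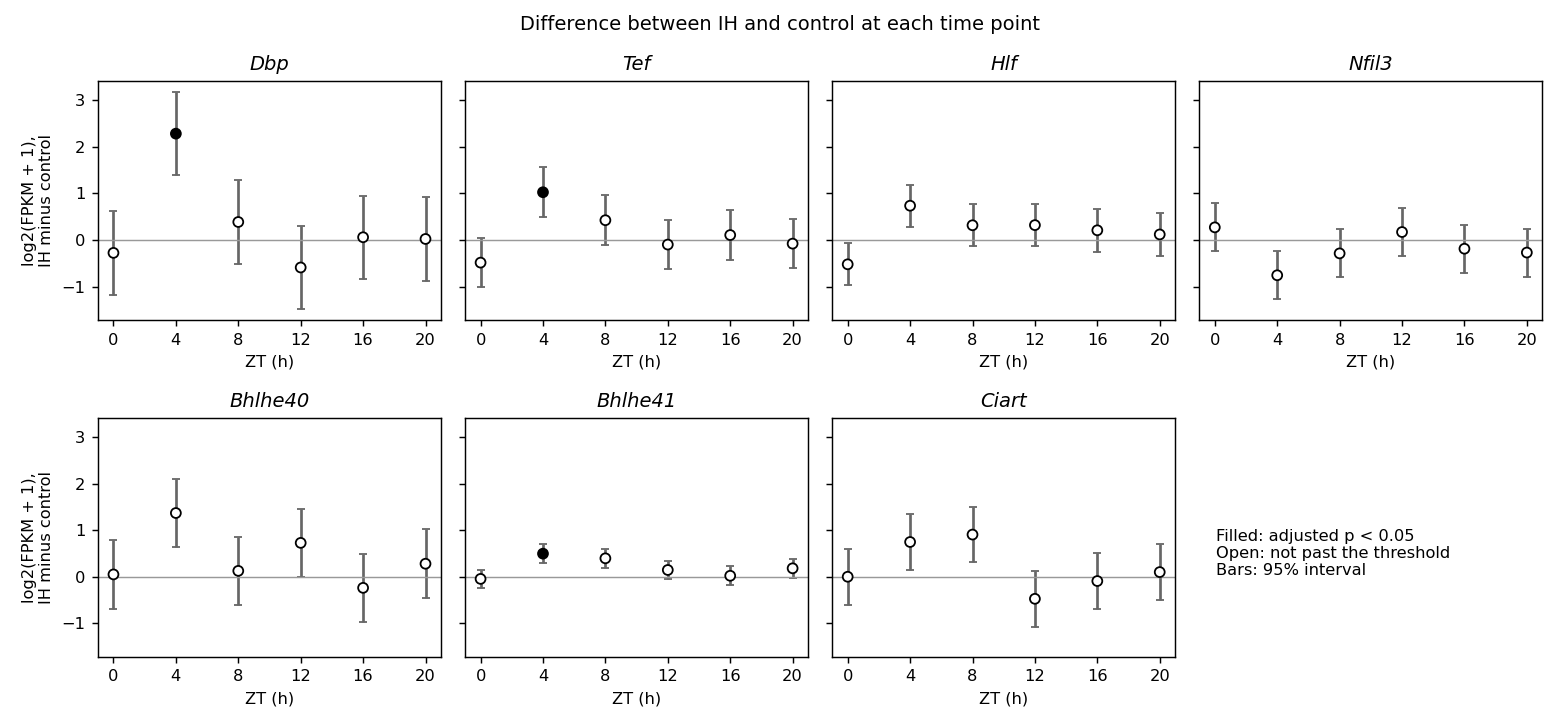
Difference in log2(FPKM + 1) between IH and control at each Zeitgeber time in h, with 95% intervals from the limma fit of the 12 groups (n = 3 per group), filled where the adjusted p was under 0.05. The 3 filled points are Dbp, Tef and Bhlhe41 at ZT4, and at ZT16 the 7 genes lie between -0.24 and 0.21.

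At the other 5 time points no member passed, and 1 (Hlf) at ZT0, 2 (Bhlhe41 and Ciart) at ZT8 and 0 at ZT12, ZT16 and ZT20 had an unadjusted p under 0.05. The share of all genes called by limma was 0.00% at ZT0, 0.00757% at ZT8, 0.772% at ZT12, 0.00757% at ZT16 and 0.00% at ZT20, while 1000, 627, 3249, 436 and 627 genes had an unadjusted p under 0.05. At ZT0, 2 of 7 members had every IH liver below every control liver, against 6.21% of all genes: these were Dbp and Hlf. The log2 difference of Dbp at ZT0 was -0.27 (limma, adjusted p = 0.95), and -1.05 with a pseudocount of 0.1 FPKM (0.66). Hlf measured 7.79, 6.33 and 5.46 FPKM in control and 5.13, 3.48 and 4.15 FPKM in IH at ZT0 (log2 difference -0.52 ± 0.22; limma, adjusted p = 0.58). Both genes thus lay below all control livers at ZT0 and above them at ZT4 (2 of 7), as did 1.64% of all genes.

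At ZT8, the end of the exposure hours, 4 of 7 members had every IH liver above every control liver, against 11.0% of all genes, and 1, Nfil3, had every IH liver below, against 7.16%. The 4 were Dbp, Tef, Bhlhe41 and Ciart. Bhlhe41 had an unadjusted p of 0.00040 at ZT8 (limma, adjusted p = 0.435). That was below the unadjusted p of Tef at ZT4 (limma, 0.00049), which passed there, so not passing at ZT8 does not show that the difference ended. Ciart had the largest log2 difference of the 7, with 10.4, 16.2 and 16.4 FPKM in control and 32.2, 27.3 and 22.9 FPKM in IH, a log2 difference of 0.90 ± 0.29 (SE; limma, adjusted p = 0.83 and unadjusted p = 0.0044). At ZT12 and ZT16 the ranges of the 2 conditions overlapped for all 7 members. At ZT20, 1 member, Bhlhe41, had every IH liver above every control liver, against 11.8% of all genes, with 0.0905, 0.159 and 0.0453 FPKM in control and 0.234, 0.218 and 0.282 FPKM in IH.

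The daily course was also examined as the change between successive time points, a comparison added after the data were seen. From ZT0 to ZT4, Dbp increased by 1.80 on the log2(FPKM + 1) scale in control and by 4.36 in IH, a difference of 2.56 (95% interval 1.29 to 3.82). All changes in this paragraph are on that scale, which understates changes of genes as low as Dbp and Bhlhe41 at ZT0. Mean Dbp went from 0.347 to 3.73 FPKM in control and from 0.109 to 25.5 FPKM in IH. Tef increased by 0.74 in control and 2.25 in IH (difference 1.51), Bhlhe41 by 0.09 and 0.63 (difference 0.54), and Hlf fell by 0.47 in control and increased by 0.79 in IH (difference 1.26). These 4 differences all had a limma adjusted p of 0.064, and 0 of 7 members passed, against 0.121% of all genes, while 6 had an unadjusted p under 0.05, against 15.7% of all genes. From ZT4 to ZT8 the order was the other way for Dbp, which increased by 3.94 in control and 2.04 in IH (difference -1.89, 95% interval -3.16 to -0.63; limma, adjusted p = 0.94), and for Bhlhe40, which increased by 1.34 and 0.10 (difference -1.24; adjusted p = 1 after rounding). These were the 2 of 7 members with an unadjusted p under 0.05 for this step, against 4.30% of all genes, and 0 of 7 passed, against 0.00757%. From ZT8 to ZT12, Ciart fell by 0.06 in control and by 1.44 in IH (difference -1.38, 95% interval -2.22 to -0.53; limma, adjusted p = 0.12). Here too 0 of 7 members passed, against 0.0227% of all genes, and 1 had an unadjusted p under 0.05, against 18.3% of all genes. For the changes between ZT12 and ZT16 and between ZT16 and ZT20, the limma adjusted p of every member was at least 0.35.

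The balance of activator and repressor transcripts was expressed as the log2 ratio of summed Dbp, Tef and Hlf FPKM to Nfil3 FPKM, as a description with no test. In control it was -1.15 ± 0.44 (SD, n = 3) at ZT0, 0.42 ± 0.46 at ZT4 and 4.92 ± 0.09 at ZT8. In IH it was -2.06 ± 0.50 at ZT0, 2.80 ± 1.08 at ZT4 and 5.69 ± 0.10 at ZT8. The 3 livers at ZT4 had ratios of 0.36, -0.01 and 0.90 in control and 1.55, 3.38 and 3.47 in IH, and at ZT8 the lowest IH ratio (5.61) was above the highest control ratio (5.00). At ZT12 the ratios overlapped, at 4.20, 1.45 and 3.06 in control and 3.08, 2.30 and 2.19 in IH. Dbp made up between 18.2% and 24.9% of the activator sum at ZT4 in control and 30.1%, 51.2% and 51.6% in the IH livers. Its share was between 53.7% and 62.0% at ZT8 in both conditions.

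**Figure D3:**
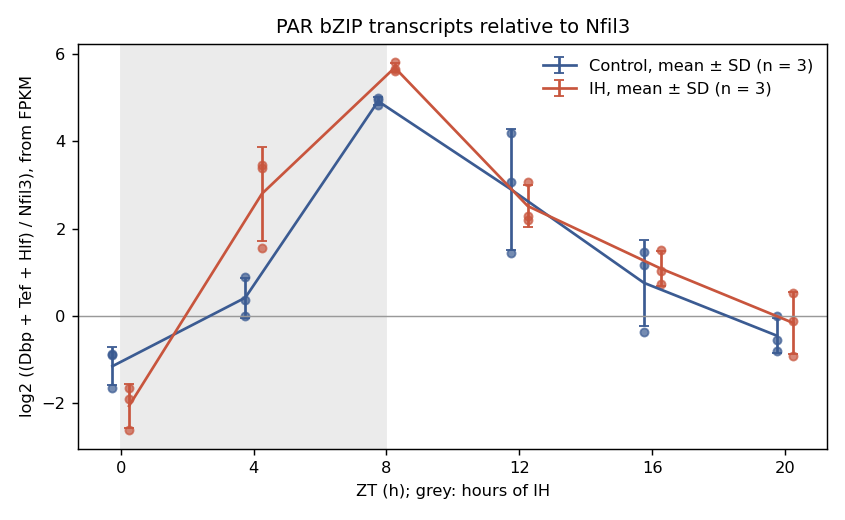
Log2 ratio of summed Dbp, Tef and Hlf FPKM to Nfil3 FPKM against Zeitgeber time in h, each mouse as a point and each group as mean ± SD (n = 3), control in blue and IH in red, with the hours of IH in grey. The IH livers lie above the control livers at ZT4 (means 2.80 and 0.42) and at ZT8 (5.69 and 4.92), and the conditions overlap at ZT12.

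Whether the shape of the daily rhythm differed was tested as the interaction of the cosine with condition over all 36 libraries. It passed in 0 of 7 members and in 0.00% of all genes tested (limma, adjusted p from 0.92 to 0.96 in the members, the lowest unadjusted P being 0.13 for Dbp). No member and 649 genes had an unadjusted p under 0.05. With the time point as a factor in place of the cosine, 0 of 7 members passed as well, against 0.136% of all genes, with lower adjusted p values (limma, from 0.12 for Dbp to 0.43 for Nfil3). The whole table moved too: in that fit 1876 genes (14.2%) had an unadjusted p under 0.05, against 649 with the cosine. Averaged over the day, 0 of 7 members differed in level, against 0.356% of all genes, while Bhlhe40 and Bhlhe41 (2 of 7) had an unadjusted p under 0.05. The nearest was Bhlhe41, with a log2 difference of 0.20 ± 0.05 (SE; limma, adjusted p = 0.0705). Leaving out control ZT12 replicate 1 or IH ZT0 replicate 2 brought Bhlhe41 past the threshold (limma, adjusted p = 0.023 and 0.047).

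Fitted peak times were earlier in IH for 7 of 7 members, but the 95% interval of the difference held 0 in every one. The share of all genes with an earlier fitted peak in IH was not counted. The members were measured in the same livers, so their agreement does not amount to 7 separate observations. Dbp peaked at ZT9.51 ± 0.41 in control and ZT8.42 ± 0.40 in IH (SE, n = 18), a difference of -1.09 h (95% interval -2.26 to 0.08). Tef moved from 11.65 to 10.63 h (difference -1.03 h, interval -2.38 to 0.33) and Ciart from 11.29 to 10.36 h (difference -0.93 h, interval -2.21 to 0.35). Nfil3, in opposite phase, moved from 20.75 to 20.28 h, a difference of -0.47 h (interval -1.91 to 0.97) that became 0.27 h when the cosine was fitted to linear FPKM. The widest difference, -3.50 h for Bhlhe40, also had the widest interval (-7.57 to 0.56). Hlf and Bhlhe41 differed by -1.77 h (interval -5.28 to 1.74) and -0.71 h (interval -2.93 to 1.51). With a sample every 4 h, differences near 1 h are smaller than the sampling step. Log2 amplitudes were higher in IH by 0.24 ± 0.43 for Dbp, 0.23 ± 0.16 for Hlf, 0.18 ± 0.13 for Bhlhe41, 0.15 ± 0.25 for Tef and 0.10 ± 0.23 for Nfil3, and differed by 0.00 ± 0.25 for Bhlhe40 and -0.01 ± 0.34 for Ciart. Each difference was under 1.5 times its standard error.

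**Figure D4:**
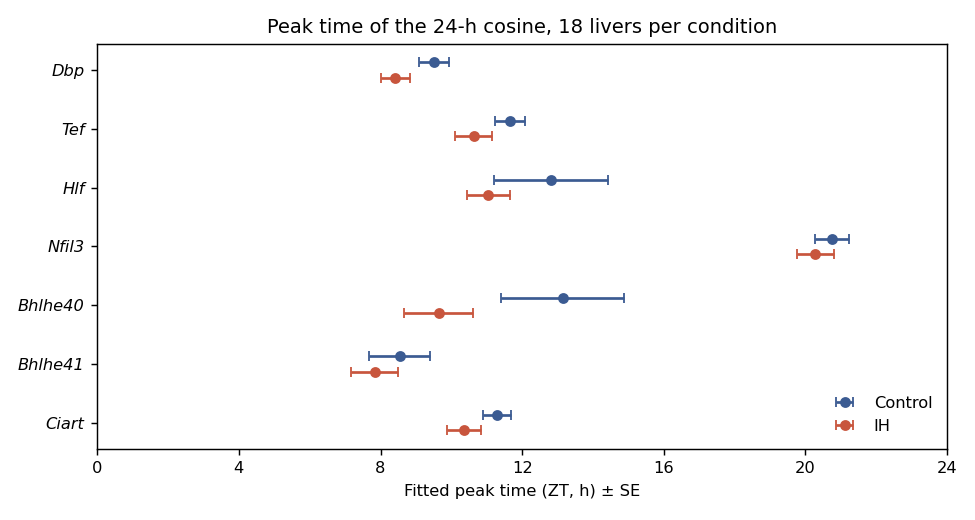
Peak time of the fitted 24-h cosine (Zeitgeber time in h, ± SE, n = 18 livers per condition) for each gene, control in blue and IH in red. The IH point lies to the left of the control point in all 7 genes, by 0.47 h in Nfil3 to 3.50 h in Bhlhe40, and every 95% interval of the difference holds 0. How many of all genes peak earlier in IH was not counted.

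Livers of one group also differed among themselves, and several members did so together. The deviation of each liver from its group mean in log2(FPKM + 1) correlated between Dbp and Ciart (r = 0.87), Dbp and Tef (r = 0.78) and, in the opposite direction, between Dbp and Nfil3 (r = -0.57) over the 36 livers. Without the control ZT12 group and the IH ZT4 group, which held the livers farthest from their group means in Dbp, the same correlations over 30 livers were 0.77, 0.58 and -0.29. IH ZT12 replicate 1, above its group mean by 1.05 in Dbp, remained among the 30. For Bhlhe40 the correlations lay closer to 0 with Dbp (r = 0.05) and Ciart (r = 0.05) than with Nfil3 (r = -0.30) and Bhlhe41 (r = 0.28). In the IH ZT4 group, replicate 1 was below its group mean by 1.22 in Dbp, 0.49 in Tef and 0.65 in Ciart, and above it by 0.42 in Nfil3. In the control ZT12 group, replicate 2 was below by 1.31 in Dbp, 0.65 in Tef and 0.80 in Ciart, and above by 0.48 in Nfil3.

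**Figure D5:**
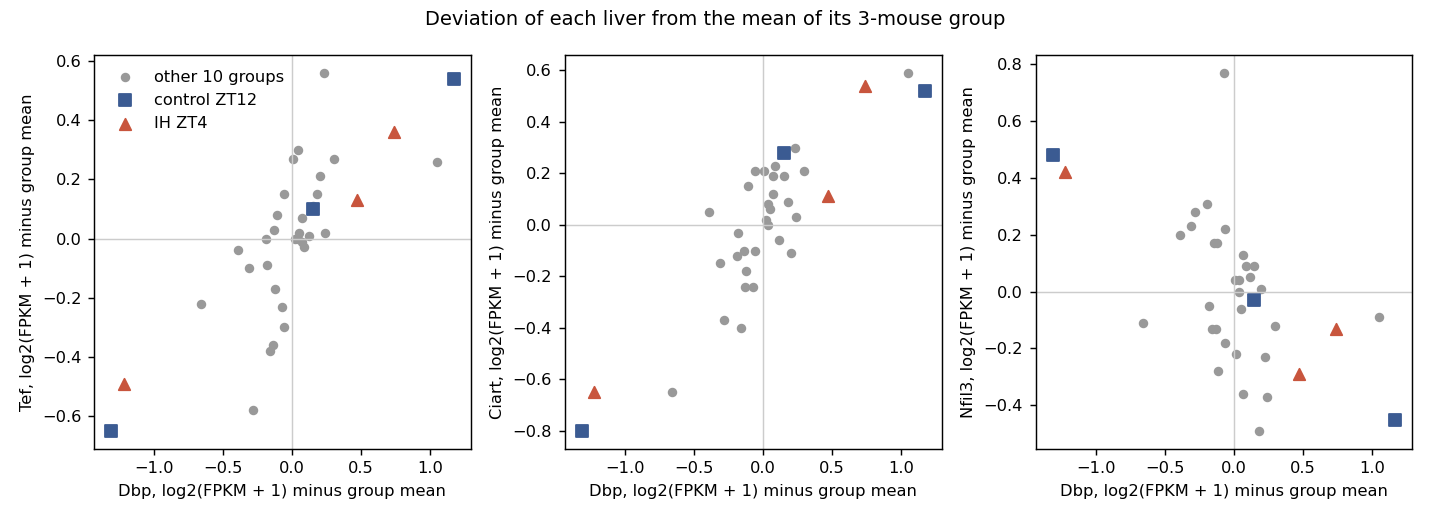
Deviation of each of the 36 livers from its group mean in log2(FPKM + 1), Tef, Ciart and Nfil3 against Dbp, with the control ZT12 livers as squares, the IH ZT4 livers as triangles and the other 10 groups as grey points. Tef and Ciart rise with Dbp (r = 0.78 and 0.87) and Nfil3 falls (r = -0.57). Squares lie at both ends of the Dbp range and a triangle near its lower end. A grey point, IH ZT12 replicate 1, lies at 1.05 in Dbp, and grey points reach the upper ends of Tef, Ciart and Nfil3.

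Genes whose daily pattern was most like that of each member were sought among 9807 genes averaging 1 FPKM or more, as Pearson correlations over the 36 libraries with no test. Dbp was most like Nr1d2 (r = 0.93), which encodes REV-ERB beta, then Clmn and Pcsk4. Tef was most like the period gene Per3 (r = 0.96), then Cyp2a5 and the liver glycogen synthase gene Gys2, and Ciart was most like Per3 (r = 0.98), Gys2 and the cell cycle kinase gene Wee1. Hlf was most like Tnks1bp1 (r = 0.93), Sord and Lrp4, Nfil3 most like Desi2 (r = 0.92), Zbtb21 and Cdkn1a, and Bhlhe41 most like Clmn (r = 0.91), Gm10804 and Narf. Bhlhe40 had the weakest likeness, with Tob2 (r = 0.79), Hcn3 and Lipg.

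The neighbours of these genes in the pathway were counted from fixed lists, which shared some genes. Per1, Per2, Per3, Nr1d1, Nr1d2, Rora and Cry1 stood both in the list of 23 below and among the core clock genes. Per1 also stood in the list for cyclic AMP signalling, so the counts are not independent. Of 23 genes known to depend on PAR bZIP factors or NFIL3, 12 cycled under normoxia and 14 under IH by the same rhythm test. The shares over all genes were 20.0% and 39.9%. At ZT4 0 passed, against 1.16% of all genes, while 19 were higher and 4 lower in IH, where 68.0% of all genes were higher. Of the 23, 9 had an unadjusted p under 0.05, against 16.4% of all genes. The median log2 difference was 0.53, against 0.067 over all genes tested. Of the 20 with a RefSeq promoter window, 1, Per3, held one of the D-boxes. The smallest P values at ZT4 belonged to Per3 (log2 difference 0.77; limma, adjusted p = 0.055), the P450 oxidoreductase gene Por (0.53; 0.16), Nr1i3, which encodes the nuclear receptor CAR (0.77; 0.19), and Fgf21 (0.88; 0.19). At ZT0, 16 of the 23 were lower in IH (median log2 difference -0.35, against -0.016 over all genes tested). None of them passed, against 0.00% of all genes.

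Of 12 core clock genes, 11 were rhythmic in each condition, against 20.0% of all genes in control and 39.9% in IH. At ZT4, 1 passed, against 1.16% of all genes: Arntl, which encodes BMAL1, fell by 0.95 on the log2 scale (limma, adjusted p = 0.028). Npas2, which encodes a paralogue of CLOCK, differed by -0.65 without passing (limma, adjusted p = 0.055). The median log2 difference of the 12 was 0.36. Nr1d2 differed by 0.52 at ZT4 (limma, adjusted p = 0.20). Of 8 other clock output genes, 8 were rhythmic in each condition and 0 passed at ZT4. There 4 had an unadjusted p under 0.05, against 16.4% of all genes. Of the 8, 5 were higher and 3 lower in IH, where 68.0% of all genes were higher. Their median log2 difference was 0.34. Gys2 differed by 0.74 and Insig2 by -0.64 (limma, adjusted p = 0.083 and 0.13).

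Because Bhlhe40 is known to respond to hypoxia, 12 HIF-induced genes were counted as well, of which 10 were tested, Hk2 and Car9 being under the filter. At ZT4, 9 of the 10 were higher in IH, against 68.0% of all genes (median log2 difference 0.28, against 0.067). Of the 10, 1 passed, against 1.16% of all genes: the mitophagy gene Bnip3 (log2 difference 0.82; limma, adjusted p = 0.042). Pdk1, which encodes a kinase that restrains pyruvate oxidation, differed by 0.75 (0.10), and Slc2a1, the glucose transporter gene, by -0.58 (0.12). Of 8 genes that cyclic AMP signalling induces, 0 passed at ZT4, where 6 were lower in IH (median log2 difference -0.29). Of the 8, 4 had an unadjusted p under 0.05, against 16.4% of all genes. Nr4a1 and Crem were lower and G6pc and Per1 higher in IH.

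Markers of inflammation and of the cell types of the liver were summed at ZT4 as well. The 4 acute phase genes summed to 96.9, 4308 and 4449 FPKM in the control livers, in order of size, and to between 55.5 and 121.7 FPKM in the IH livers, with 0 of 4 past the threshold and a median log2 difference of -3.21. Hepatocyte markers summed to between 44910 and 46920 FPKM in control and between 53490 and 56880 FPKM in IH, with 0 of 6 past the threshold. Such a sum follows its most abundant genes, here Alb, with a mean of 32506 FPKM against 117 for Hnf4a. Of the 6, 5 were higher in IH and 1, Hnf4a, was lower (log2 difference -0.23), where 68.0% of all genes were higher. Kupffer cell and leukocyte markers summed to between 24.2 and 49.6 FPKM in control and 17.6 and 33.9 FPKM in IH (0 of 8), endothelial markers to between 27.1 and 32.5 FPKM and between 32.3 and 37.9 FPKM (0 of 4), stellate cell markers to between 47.0 and 61.3 FPKM and between 60.3 and 74.2 FPKM (0 of 4) and cholangiocyte markers to between 31.7 and 58.6 FPKM and between 35.7 and 49.0 FPKM (0 of 4). Within the lists, 2 of 8 Kupffer cell and leukocyte, 4 of 4 endothelial, 3 of 4 stellate cell and 3 of 4 cholangiocyte markers were higher in IH. The part of inflammation and of the cell types in the differences of the clock output genes was not tested. Without the 3 libraries with more than 10000 FPKM of Saa1, none of which was from ZT4, the ZT4 differences of Dbp, Tef, Hlf, Nfil3, Bhlhe40 and Bhlhe41 passed (6 of 7), with 10.2% of all genes passing in that fit.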

How the data were processed

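The authors prepared stranded polyadenylated RNA libraries and, per the labels, aligned reads to mm10 with TopHat2 2.1.1 and estimated FPKM with Cufflinks 2.2.1. The deposited FPKM values come as 1 table per condition with equal column names, so the condition of a table was taken from the table's own name. Each table held 24883 rows, and the 280 symbols on more than 1 row were left out, which left 24066. The annotation and any scaling between libraries are not given in the sources used here.

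The log2 of FPKM + 1 was modelled by limma 3.58.1 under R 4.3.3 (intensity trend, Benjamini-Hochberg adjustment over the 13215 genes averaging 0.1 FPKM or more). Rhythms were tested with a 24-h cosine within each condition, at a nominal P of 0.01. Interaction and level were tested over 36 libraries, and each time point as a contrast in a fit of 12 groups. Peak times came from least squares. Each library is 1 mouse, and the p-values set a difference against the spread between mice, shared over the groups of a fit. The cage of each mouse is not given in the sources used here. An effect of the cage therefore cannot be told apart from one of the condition. Tests were tested on simulated data. Promoters and figures used Python 3.11.15, pandas 2.3.3 and matplotlib 3.10.9.

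The members, lists and tests were chosen with earlier results of these data known. All 7 members were named, with the 3 genes most like each, and in each list up to 4 genes with the smallest P. Alternatives were the pseudocount, the filter, 3 scalings, the block, other rhythm fits and leaving out libraries. Sample weights, leaving out ZT12 and the changes between time points were added after the data were seen. Metabolomics was not analysed here.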

Additional observations from a re-analysis of the deposited data

Results flagged for a closer look

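For Dbp and Hlf, every IH liver was below every control liver at ZT0 and above every control liver at ZT4, as did 1.64% of all genes tested. At ZT0 neither difference passed (log2 differences of -0.27 for Dbp and -0.52 for Hlf; limma, adjusted p = 0.95 and 0.58), and Dbp lay under 1 FPKM in every liver. The log2 difference at ZT4 less that at ZT0 was 2.56 for Dbp and 1.26 for Hlf, each with an adjusted p of 0.064 in the limma fit of the 12 groups, which misses the threshold. Both genes were picked by the values of these same livers at ZT0 and ZT4, so this p is not separate support. The comparison was also added after the data were seen. Dbp was also above every control liver at ZT8, where the log2 difference less that at ZT0 was 0.66. That last difference was not tested.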

How the results depend on the processing

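Over 16 settings and 36 fits that each left out 1 library, 3620 of 3686 tested values and counts kept their side of the threshold or stayed within 1.5 times. Many of these, such as the interaction and the differences at ZT0, ZT16 and ZT20, were far from the threshold in the main fit. The total therefore does not describe how stable the calls at ZT4 were. Tef kept its call there in 17 of the 36 fits that left out 1 library. Of the log2 differences, 0 changed sign while past the threshold, and 25 of 2233 changed sign without being so, none of them over 0.32 in size at first. The count of members called at ZT4, 3, became 6 without the 3 libraries with Saa1 above 10000 FPKM (10.2% of all genes called) and 7 with sample weights (chosen after seeing the data), under which control ZT12 replicate 2 had a weight of 0.04 and 24.6% of all genes were called. Sample weights also gave 2 members at ZT8 (Bhlhe41 and Ciart, limma adjusted p 0.015 and 0.030) in place of 0, with 1.83% of all genes called. Leaving out 1 library at a time gave counts of 0 to 5 at ZT4, 0 to 1 at ZT12 and 0 to 1 in level over the day. The share of all genes called was not counted for each of these fits. Whether the members or the whole table moved therefore cannot be told from these counts. At ZT12 the 1 member was Bhlhe40 without control replicate 3 or Bhlhe41 without control replicate 1. The median difference in peak time, -1.03 h, ranged from -1.23 to -0.86 h when 1 library was left out and from -1.52 to -0.96 h under other settings. With a pseudocount of 0.1 FPKM the count at ZT4 stayed at 3, and the share of all genes called with it was not counted. Why these values moved was not tested. The deviations of IH and control mice that share a time point and a replicate number had a mean r of 0.05 (18 pairs, from -0.18 to 0.29, 6 over 0.1). Pairs of unlike number were not compared, so whether mice of equal number deviate together cannot be judged from these values. The replicate block gave 5 rhythmic members in control, 7 in IH and 2 at ZT4, Tef being lost (limma adjusted p = 0.057). The shares over all genes were not counted with the block. Depth is an estimate from FPKM steps, and levels under 1 FPKM, as for Bhlhe41 and for the troughs of Dbp and Ciart, rest on few fragments: 0.1 FPKM of a 2-kb transcript was worth about 9.7 to 16.8.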
